A study of Rattus norvegicus with 8 samples.

Results

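The nuclear genes for the subunits of oxidative phosphorylation were followed in H9c2 cells, a line of rat myoblasts from embryonic heart, grown in space or on ground with or without nanoceria. Genes were taken by symbol (Nduf with a, b, c, s or v and a number, Sdha to Sdhd, Uqcr, Cox4 to Cox8, and Atp5), with assembly factors left out. This gave 73 of the 15037 genes named on the array, each measured by 1 probe set: 31 of complex I, 4 of complex II, 8 of complex III, 16 of complex IV and 14 of complex V. The 16 of complex IV include Ndufa4, an associated subunit first described in complex I, and its paralog Ndufa4l2. They also include Cox7a2l, which joins complex IV to complex III. By their symbols, Cyc1 of complex III and Ndufab1 of complex I fell outside the 73. Both were placed in the list of electron carriers and coenzyme Q genes used below. The place of Ndufab1 in that list does not describe its function. Other RefSeq genes whose symbols match were not analysed here.

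Each of 8 samples gave total RNA (30 ng) for a Clariom S Pico array of the rat. The 2 space nanoceria arrays came from cells kept on the International Space Station with 100 µg/ml of serum-coated cerium oxide nanoparticles (nanoceria), and the 1 space untreated array from cells there without particles. The 3 ground nanoceria and 2 ground untreated arrays came from cultures on Earth in the same hardware, activated by hand. All cultures were kept in low-serum differentiation medium and had a transport temperature of 27 °C. All went to 37 °C on day 7 after seeding and were fixed on day 10. Those on Earth followed after the flight, along its logged temperatures, so the regime cannot be told apart from the culture run. The ground run used separate hardware units, 3 with nanoceria and 3 without, but the labels do not tie each array to a unit or say that the cultures were independent, so the p-values measure the spread between these arrays, which may be technical. Because a culture is a bulk sample, fewer cells of a type and less RNA per cell cannot be told apart.

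Oxidative phosphorylation takes electrons from NADH at complex I and from succinate at complex II, and coenzyme Q carries them to complex III. Cytochrome c carries them on to complex IV, which hands them to oxygen, while complexes I, III and IV pump protons across the inner mitochondrial membrane. Complex V, the ATP synthase, uses the return of those protons to make ATP, and in muscle this supplies most of the ATP for sustained contraction. The genes below are nuclear, and several complex IV subunits exist in muscle and ubiquitous isoforms.

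Promoters of several such genes are known to bind NRF1, ETS-family factors (NRF2/GABP) and YY1. Among the 65 genes with a RefSeq window of 250 bases before to 50 bases after the start (build GRCr8), 10 held the NRF1 letters, GCGCA, any base and GCGC (15.4%, against 7.16% of 12924 genes named on the array and 4.26% of all 33469 windows). The ETS letters CCGGAAG were in 20 (30.8%, against 13.1% and 8.75%), and the YY1 letters AAGATGGC in 13 (20.0%, against 4.13% and 3.17%). The hypoxia-response letters ACGTGC were in 4 (6.15%, against 6.59% and 5.73%). Both strands were searched and no allowance was made for base composition. In all, 37 of the 65 windows held an NRF1, ETS or YY1 match and 28 held none of the 3. A match describes the letters of the window and is not a shown binding site. The stretches below, each the 150 bases directly before the annotated start and read 5′ to 3′ along the gene, belong to the 3 genes with the largest differences on ground (Cox7b, Cox8b, Uqcrc1) and to 3 examples of the matches in other complexes. Capitals mark a motif, on either strand, that lies wholly within the stretch.
Cox7b, chrX:75148886-75149035, plus strand, none of the 4 motifs: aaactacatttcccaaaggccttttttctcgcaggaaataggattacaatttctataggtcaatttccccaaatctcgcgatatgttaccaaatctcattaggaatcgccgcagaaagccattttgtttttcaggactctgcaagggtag
Cox8b, chr1:205408274-205408423, minus strand, hypoxia-response letters: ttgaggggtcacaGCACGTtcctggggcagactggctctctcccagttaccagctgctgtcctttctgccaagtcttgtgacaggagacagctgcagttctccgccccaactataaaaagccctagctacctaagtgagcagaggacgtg
Uqcrc1, chr8:118468073-118468222, plus strand, NRF1 letters: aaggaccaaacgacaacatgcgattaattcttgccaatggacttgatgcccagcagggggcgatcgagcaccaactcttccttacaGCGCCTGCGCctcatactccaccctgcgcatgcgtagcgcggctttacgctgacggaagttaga
Sdha, chr1:30764403-30764552, plus strand, NRF1 letters at 2 places: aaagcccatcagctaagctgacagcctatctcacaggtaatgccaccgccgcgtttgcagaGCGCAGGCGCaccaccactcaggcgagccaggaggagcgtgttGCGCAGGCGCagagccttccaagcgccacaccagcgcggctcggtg
Atp5f1a, chr18:73567387-73567536, plus strand, ETS letters: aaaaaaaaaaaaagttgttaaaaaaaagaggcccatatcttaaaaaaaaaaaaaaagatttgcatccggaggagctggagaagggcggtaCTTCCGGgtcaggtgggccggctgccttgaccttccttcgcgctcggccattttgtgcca
Atp5pf, chr11:37375102-37375251, minus strand, YY1 and then ETS letters: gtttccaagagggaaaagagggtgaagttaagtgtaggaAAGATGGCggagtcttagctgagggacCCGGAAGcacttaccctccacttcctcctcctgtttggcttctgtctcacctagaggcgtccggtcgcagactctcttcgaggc

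Values are log2 of the deposited intensities. Over all probe sets array pairs correlated at r = 0.991 to 0.992 within space (3 pairs), 0.959 to 0.985 within ground (10 pairs) and 0.964 to 0.987 between regimes (15 pairs). No background measure was available, so whether a dim gene was expressed is unknown. The 9 measured markers of H9c2 myoblasts and muscle had summed intensities of 15970 and 16481 on the space nanoceria arrays, 16697 on the space untreated array, 18123 to 19853 on the ground nanoceria arrays, and 14440 and 15050 on the ground untreated arrays. Sums were 153 to 219 over 5 endothelial markers, 68.3 to 80.7 over 2 adipocyte markers, 430 to 801 over 5 leukocyte markers, 937 to 3107 over 7 cardiomyocyte markers and 1493 to 4674 over 4 epithelial markers, the last mostly Krt8, as the muscle sum was mostly Vim, which is not specific to muscle. By the median deviation of the 9 muscle markers from their own means, the arrays ran from -0.68 on ground untreated 3 to 1.18 on ground nanoceria 3. Since intensities of different probe sets cannot be set against each other, these sums show only how a list varied between arrays.

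With spaceflight and with nanoceria the median of the subunit genes stayed close to that of all probe sets. The largest differences were those of Cox8b and Cox7b with spaceflight, and of Uqcrc1, Cox8b and Cox7b with nanoceria. None of these passed the adjusted test. In space against ground over both treatments, 30 of the 73 genes were higher and 43 lower (all 23188 probe sets: 9587 and 13601). Their median log2 difference was -0.03 (all probe sets: -0.04). With limma and Benjamini-Hochberg adjustment over all probe sets at 0.05, 0 subunit genes and 0 of all probe sets passed (0%). At an unadjusted p under 0.05, 2 were higher (5.3% of all probe sets) and 2 lower (4.26%), out of 2217 probe sets in all. For none of the 73 did the space and ground arrays separate, against 1.97% of all probe sets that were higher and 3.14% that were lower on every space array. All 73 had a 95% interval within 1 log2 unit of 0, and 37 had one within 0.5.

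In nanoceria against untreated cells over both regimes, 44 subunit genes were higher and 29 lower (all probe sets: 12986 and 10202). Their median log2 difference was 0.06 (all probe sets: 0.03). Again 0 of the 73 and 0 of all probe sets passed the limma test after Benjamini-Hochberg adjustment (0%). At an unadjusted p under 0.05, 5 were higher (3.77% of all probe sets) and 1 lower (5.86%), out of 2233 in all. The arrays separated for Ndufb7 and Ndufs8, higher on every nanoceria array (2.47% of all probe sets), and for Cox7b, lower on every one (2.28%). The 95% interval lay within 1 log2 unit of 0 for 70 of the 73 and within 0.5 for 29. The subunit genes' counts, of 1 to 5 genes in each direction, lie on both sides of the shares over all probe sets.

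**Figure D1:**
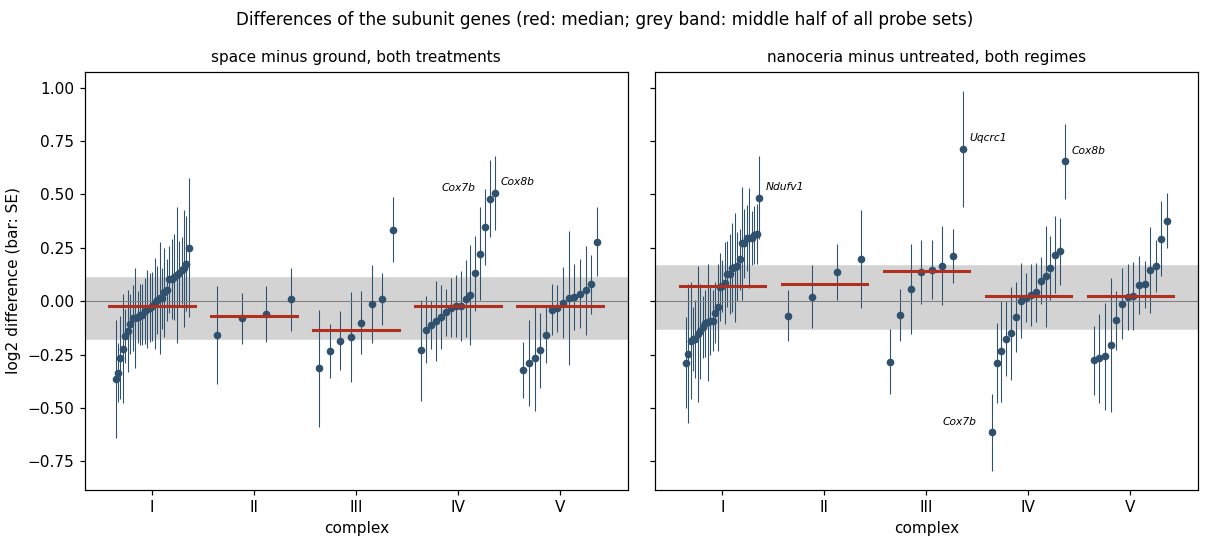
Log2 difference of each subunit gene (point, bar: SE) by complex for space minus ground over both treatments (left) and nanoceria minus untreated over both regimes (right). The red bars are complex medians and the grey band holds the middle 50% of all 23188 probe sets; Cox8b and Cox7b lie highest in space minus ground, and Uqcrc1, Cox8b and Cox7b lie farthest from 0 in nanoceria minus untreated.

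By complex, the median log2 difference in space against ground was -0.02 for complex I, -0.07 for complex II, -0.13 for complex III, -0.02 for complex IV and -0.02 for complex V. In nanoceria against untreated cells it was 0.07 for complex I, 0.08 for complex II, 0.14 for complex III, 0.02 for complex IV and 0.02 for complex V. A single gene had a median SE of 0.16 in both comparisons.

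The subunit genes also differed between arrays of 1 group. Ground nanoceria 1 held the highest of the 8 values for 46 of the 73 genes (63.0%). The same array held the highest value for 18.3% of all named genes, and for 32.4% of the 2015 named genes at or above the lower quartile of the subunit genes' brightness. Its median deviation from each gene's mean over the 8 arrays was 0.31, with 67 of the 73 genes above that mean. In complex I all 31 genes were above their mean there (median 0.40) and 24 had their highest value. The highest value fell on this array for 3 of 4 genes in complex II, 6 of 8 in complex III, 5 of 16 in complex IV and 8 of 14 in complex V. Picked out after their values were seen, Uqcrc2, Cox7a2l and Ndufa4l2 had their lowest value there.

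Ground nanoceria 3, of the same group, held the lowest value for 24 of the 73 genes (32.9%, against 12.5% of all named genes), 13 of them in complex I. Ground untreated 1 held the lowest value for 20 (27.4%) and ground untreated 3 the highest for 15 (20.5%). These shares were close to the 26.3% and 18.8% of the 2015 bright genes, and above the 16.1% and 14.5% of all named genes. The median range of a subunit gene was 0.17 log2 units over the 3 space arrays (all named genes: 0.26; the 2015 bright genes: 0.20) and 0.68 over the 5 ground arrays (0.67 and 0.70). It was 0.49 over the 3 ground nanoceria arrays alone (0.42 and 0.41). The summed intensity of the 5 leukocyte markers was also highest on ground nanoceria 1, at 801 against 430 to 622 on the other arrays. Most of that sum was Cd14, while 2 of the 5 markers were above their own mean on this array and the median deviation of the list was -0.09. Its part in the pattern was not tested.

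**Figure D2:**
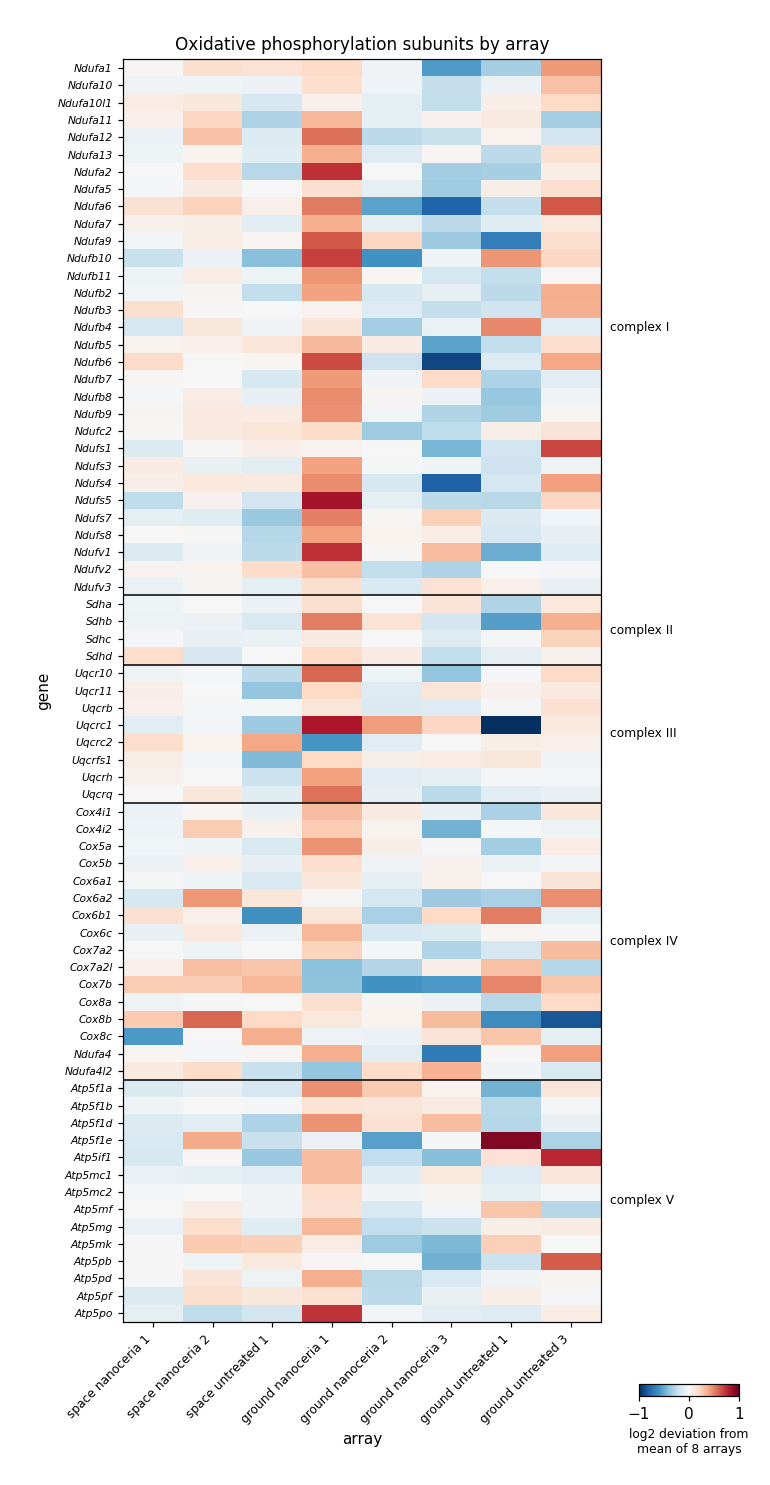
Deviation of each of the 73 subunit genes (rows, by complex) from its own mean over the 8 arrays (columns), in log2 units on a color scale that ends at -1 and 1. Ground nanoceria 1 is above the mean (red) for 67 of 73 genes and ground nanoceria 3 for 23.

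**Figure D3:**
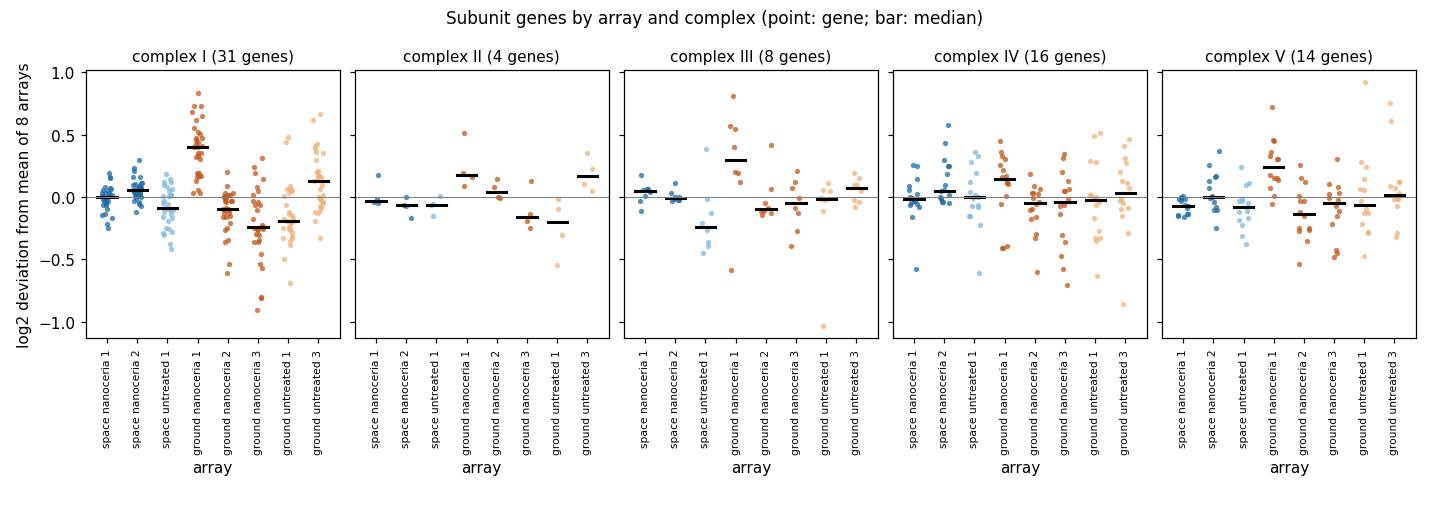
The same deviations in log2 units by array, with 1 panel per complex, a point per gene and a bar at the median. In complex I all 31 genes lie above their mean on ground nanoceria 1, and its median there is 0.40, against -0.24 on ground nanoceria 3.

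The sign of the median over the subunit genes depended on single arrays. In nanoceria-treated cells, space against ground gave a median log2 difference of -0.003 with 35 of 73 genes higher. Without ground nanoceria 1 it was 0.15 with 51 higher. Nanoceria against untreated cells on ground gave -0.001 with 36 higher, and without that array -0.11 with 25 higher. Over both treatments, space against ground gave 0.03 with 43 higher without it, and nanoceria against untreated cells over both regimes gave -0.02 with 32 higher. Leaving out ground untreated 3 gave 0.08 for nanoceria on ground (48 higher), 0.09 for nanoceria over both regimes (57 higher), and 0.05 for space against ground in untreated cells (44 higher), where all arrays gave -0.06 (27 higher). The last was -0.19 (15 higher) without ground untreated 1. The median over all probe sets lay between -0.05 and 0.04 in these fits. No subunit gene passed the adjusted test in any of them.

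Within each regime and treatment the counts were as follows. On ground, nanoceria against untreated cells had 4 subunit genes higher (4.42% of all probe sets) and 1 lower (6.57%) at an unadjusted p under 0.05, out of 2549 probe sets, and 0 of all passed the limma test after adjustment (0%). The arrays separated for 9 that were higher (14.3% of all probe sets): Ndufv1, Ndufs3, Ndufs7, Ndufs8 and Ndufb7 of complex I, Uqcrc1, Cox8b, Atp5f1b and Atp5f1d. They separated for 3 that were lower (12%): Ndufa10l1, Uqcrc2 and Cox7b. In space, with 1 untreated array that is assumed to vary like the other groups, nanoceria against untreated cells had a median of 0.08 (all probe sets: 0.01). Of the subunit genes 55 were higher and 18 lower (all probe sets: 12031 and 11157). At an unadjusted p under 0.05, 0 were higher (0.707% of all probe sets) and 0 lower (0.763%), out of 341 probe sets, and 0 of all passed after adjustment (0%).

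Space against ground in nanoceria-treated cells had 1 subunit gene higher (5.02% of all probe sets) and 1 lower (3.39%) at an unadjusted p under 0.05, out of 1950 probe sets. On every space nanoceria array 3 were higher (13.6%), namely Ndufa10l1, Uqcrc2 and Cox7b, and 8 lower (17.6%), namely Ndufv1, Ndufs7, Ndufs8, Uqcrc1, Cox5a, Atp5f1a, Atp5f1b and Atp5f1d. Both this comparison and nanoceria on ground use the 3 ground nanoceria arrays. In untreated cells, with the same single space array, 1 was higher (1.63%) and 2 lower (1.51%), out of 728. The interaction, the nanoceria difference in space minus that on ground, had 1 higher (1.44%) and 0 lower (0.906%), out of 545. In these 3 comparisons too, 0 of all probe sets passed the limma test after Benjamini-Hochberg adjustment (0%). The comparisons share arrays, so their values are not independent.

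Complex I takes electrons from NADH through the flavin subunit Ndufv1. Ndufv1 had log2 intensities of 10.74 and 10.85 on the space nanoceria arrays and 10.62 on the space untreated array. On ground it had 11.61, 10.89 and 11.19 with nanoceria, against 10.39 and 10.76 untreated. Every ground nanoceria array lay above both ground untreated arrays, and also above all space arrays. The difference on ground was 0.66 ± 0.24 (SE, limma adjusted p = 0.394) and over both regimes 0.49 ± 0.20 (limma adjusted p = 0.488). When each array was left out in turn, the Ndufv1 difference on ground lay between 0.47 and 0.84.

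Ndufs8 and Ndufs7 carry iron-sulfur clusters on the way to coenzyme Q. Ndufs8 had 10.16 and 10.16 in space with nanoceria, against 9.86 untreated. On ground it had 10.56, 10.18 and 10.23 with nanoceria, against 9.98 and 10.07 untreated. All 5 nanoceria arrays were higher than all 3 untreated ones, and the difference over both regimes was 0.30 ± 0.13 (SE, limma adjusted p = 0.509). Ndufs7 had 10.17 and 10.14 (nanoceria) and 9.89 (untreated) in space, and 10.77, 10.28 and 10.50 (nanoceria) and 10.12 and 10.24 (untreated) on ground. The space nanoceria arrays were below all ground nanoceria arrays, whereas over both treatments space and ground overlapped. In space against ground Ndufs7 differed by -0.33 ± 0.14 (SE, limma adjusted p = 0.499).

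Ndufb7, an accessory subunit of the membrane arm, had 11.74 and 11.72 (nanoceria) and 11.57 (untreated) in space. On ground it had 12.15, 11.69 and 11.92 with nanoceria, against 11.42 and 11.62 untreated. Its nanoceria arrays were all above its untreated arrays, and the difference on ground was 0.40 ± 0.18 (SE, limma adjusted p = 0.476). Ndufs1, the largest subunit, was at -0.38 ± 0.28 with nanoceria on ground and Ndufv2, which holds a further cluster, at -0.08 ± 0.21 (limma adjusted p = 0.654 and 0.918). Without ground untreated 3, where Ndufs1 was at its highest (9.44), its difference was 0.05, and that of Ndufv2 was 0.03 without ground nanoceria 3. Ndufa10l1, a paralog of the accessory subunit Ndufa10, was lower on every ground nanoceria array (9.27, 9.12 and 8.97) than on the ground untreated arrays (9.28 and 9.41). Its difference was -0.23 ± 0.16 (limma adjusted p = 0.629).

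Complex II oxidizes succinate through the flavin subunit Sdha and the iron-sulfur subunit Sdhb, held by Sdhc and Sdhd in the membrane. Sdha had 9.75 and 9.80 (nanoceria) and 9.74 (untreated) in space, and 9.95, 9.79 and 9.92 (nanoceria) and 9.49 and 9.90 (untreated) on ground. Ground untreated 1 was the lowest of the 8, and the groups overlapped. The nanoceria difference on ground was 0.19 ± 0.17 (SE, limma adjusted p = 0.718), and -0.01 without ground untreated 1. Sdhb ranged from 11.07 on ground untreated 1 to 12.13 on ground nanoceria 1, with a nanoceria difference on ground of 0.25 ± 0.31 (limma adjusted p = 0.796). The Sdhb difference was -0.20 without ground untreated 1 and 0.70 without ground untreated 3.

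Complex III holds the core proteins Uqcrc1 and Uqcrc2 and the Rieske iron-sulfur protein Uqcrfs1. Uqcrc1, whose NRF1 letters are printed above, had 10.02 and 10.11 (nanoceria) and 9.77 (untreated) in space. On ground it had 10.94, 10.55 and 10.35 with nanoceria, against 9.10 and 10.23 untreated. The ground nanoceria arrays were above all others, and the ground untreated arrays lay far apart. The difference on ground was 0.95 ± 0.34 (SE, limma adjusted p = 0.384) and over both regimes 0.71 ± 0.27 (limma adjusted p = 0.477). The size on ground rested on ground untreated 1: without it the Uqcrc1 difference was 0.38, and without ground untreated 3 it was 1.51.

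Uqcrc2 had a difference of the opposite sign. It had 10.74 and 10.60 (nanoceria) and 10.95 (untreated) in space, and 9.98, 10.46 and 10.56 (nanoceria) and 10.63 and 10.62 (untreated) on ground. The ground nanoceria arrays were its 3 lowest. The nanoceria difference on ground was -0.29 ± 0.20 (SE, limma adjusted p = 0.639; -0.11 without ground nanoceria 1), and space against ground over both treatments gave 0.34 ± 0.15 (limma adjusted p = 0.534). Uqcrfs1 was lowest on the single space untreated array, at 8.41 against 8.82 to 9.06 on the other 7. That gave 0.46 ± 0.20 for nanoceria in space and -0.48 ± 0.20 for space in untreated cells (limma adjusted p = 1.00 for both). Uqcr11, a small accessory subunit, was likewise lowest on that array, at 11.53 against 11.80 to 12.12.

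The smallest p-values among the subunit genes for nanoceria on ground were those of Cox7b and Cox8b, both of complex IV. Cox7b, a small subunit of the membrane part, had 11.87 and 11.86 in space with nanoceria, against 11.95 untreated. On ground it had 11.21, 11.01 and 11.04 with nanoceria, against 12.10 and 11.89 untreated. The 3 ground nanoceria arrays stood apart below the other 5, including ground nanoceria 1, on which most subunit genes were highest. On ground Cox7b averaged 11.09 ± 0.11 (SD, n = 3) with nanoceria and 11.99 ± 0.15 (SD, n = 2) untreated.

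The nanoceria difference of Cox7b was -0.91 ± 0.16 on ground (SE, limma adjusted p = 0.139) and -0.08 ± 0.21 in space (limma adjusted p = 1.00). The test of the difference between them, the interaction, gave 0.83 ± 0.26 (limma adjusted p = 1.00, unadjusted p = 0.0144). In nanoceria-treated cells space against ground gave 0.78 ± 0.16 (limma adjusted p = 0.324), and in untreated cells -0.05 ± 0.21 (limma adjusted p = 1.00). When each array was left out in turn, the Cox7b difference on ground lay between -1.02 and -0.80, and space against ground over both treatments, at 0.48 ± 0.18 with all arrays, lay between 0.39 and 0.78, the last without the space untreated array.

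Cox8b, the muscle and heart isoform of subunit 8, was dim. It had 6.37 and 6.69 (nanoceria) and 6.31 (untreated) in space, and 6.22, 6.15 and 6.43 (nanoceria) and 5.48 and 5.26 (untreated) on ground. The 2 ground untreated arrays stood apart below the other 6. The nanoceria difference was 0.89 ± 0.18 on ground (SE, limma adjusted p = 0.186) and 0.22 ± 0.24 in space (limma adjusted p = 1.00), and their interaction was -0.67 ± 0.30 (limma adjusted p = 1.00). In untreated cells space against ground gave 0.94 ± 0.24 (limma adjusted p = 1.00). The Cox8b difference on ground lay between 0.78 and 1.01 when each array was left out. Space against ground over both treatments gave 0.51 ± 0.17 (limma adjusted p = 0.438), and 0.27 without the space untreated array.

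On ground all 9 measured markers of H9c2 myoblasts and muscle were also higher with nanoceria than untreated (12872 of all 23188 probe sets). The smallest of these differences was 0.009, and 6 of the 9 had an unadjusted limma p under 0.05 (4.42% of all probe sets). In untreated cells, with the single space array, all 9 were higher in space than on ground (10555 of all 23188 probe sets). With nanoceria in space, against the single untreated array, 8 of the 9 markers were lower (11157 of all 23188 probe sets). The median over the 9 was -0.08 (median SE 0.47), and Cox8b was at 0.22. In nanoceria-treated cells 7 of 9 were lower in space (13586 of all 23188 probe sets), 4 of them at an unadjusted limma p under 0.05 (3.39%). Cox8b was at 0.27 in that comparison. The part of these markers in the values of Cox8b and the other subunit genes was not tested. The other muscle isoform measured, Cox6a2, had 9.35, 9.17 and 8.98 (nanoceria) and 9.02 and 9.81 (untreated) on ground, which overlap, with a difference of -0.25 ± 0.29 (SE, limma adjusted p = 0.789) that was 0.15 without ground untreated 3. The ubiquitous partners Cox8a and Cox6a1 differed there by 0.08 ± 0.19 and -0.04 ± 0.15 (limma adjusted p = 0.903 and 0.935), and both changed sign when an untreated array was left out (Cox8a to -0.16, Cox6a1 to 0.02).

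Cox4i2 and Ndufa4l2, known as isoforms induced by low oxygen, were dim and did not pass the test. In space against ground Cox4i2 differed by 0.13 ± 0.18 (SE; 95% interval -0.27 to 0.53) and Ndufa4l2 by 0.01 ± 0.18 (95% interval -0.40 to 0.42), with limma adjusted p = 0.834 and 0.987. Their partners Cox4i1, the ubiquitous subunit 4, and Ndufa4 differed by -0.07 ± 0.15 and 0.03 ± 0.24 (limma adjusted p = 0.893 and 0.978). The signs of Ndufa4l2 and Ndufa4 turned with single ground nanoceria arrays, to -0.13 and -0.15. Cox7a2l, which joins complexes III and IV into supercomplexes, differed by 0.35 ± 0.18 in space (limma adjusted p = 0.569). Cox5a, a subunit on the matrix side, differed by 0.30 ± 0.21 with nanoceria on ground (limma adjusted p = 0.628), and by 0.09 without ground untreated 1.

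Cox6b1, which joins the 2 monomers of complex IV, had wide spread on ground. It had 11.08 and 10.98 (nanoceria) and 10.32 (untreated) in space, and 11.05, 10.60 and 11.13 (nanoceria) and 11.44 and 10.84 (untreated) on ground. The space untreated array was the lowest of the 8. Nanoceria in space gave 0.71 ± 0.33 and space in untreated cells -0.82 ± 0.33 (SE, limma adjusted p = 1.00 for both). Cox8c, the testis isoform of subunit 8, also dim, had 6.13 and 6.71 with nanoceria in space, against 7.07 untreated, a difference of -0.65 ± 0.29 (limma adjusted p = 1.00).

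Complex V has a catalytic head of Atp5f1a and Atp5f1b, within which a central stalk turns. Atp5f1d belongs to that stalk. Atp5f1d had 11.32 and 11.36 (nanoceria) and 11.15 (untreated) in space, and 11.91, 11.61 and 11.77 (nanoceria) and 11.17 and 11.39 (untreated) on ground. The 3 ground nanoceria arrays were its highest. Nanoceria on ground gave 0.48 ± 0.16 (SE, limma adjusted p = 0.368), and space against ground in nanoceria-treated cells gave -0.43 ± 0.16 (limma adjusted p = 0.560).

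The head subunits were nearer to 0. With nanoceria on ground Atp5f1a differed by 0.42 ± 0.22 and Atp5f1b by 0.26 ± 0.15 (SE, limma adjusted p = 0.523 and 0.568). Both were 0.13 without ground untreated 1, and 0.72 and 0.39 without ground untreated 3. Atp5f1b had 13.18, 13.16 and 13.12 on the ground nanoceria arrays, against 12.76 and 13.03 on the ground untreated ones. Atp5mk, a small membrane subunit, differed by -0.36 ± 0.21 on ground (limma adjusted p = 0.560).

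Atp5if1 is the inhibitor that stops the synthase from running backwards and spending ATP. It had 10.35 and 10.52 (nanoceria) and 10.13 (untreated) in space, and 10.81, 10.26 and 10.09 (nanoceria) and 10.66 and 11.26 (untreated) on ground. Ground untreated 3 was the highest of the 8 and the groups overlapped. Nanoceria on ground gave -0.57 ± 0.27 (SE, limma adjusted p = 0.493) and in space 0.30 ± 0.37 (limma adjusted p = 1.00), with an interaction of 0.88 ± 0.46 (limma adjusted p = 1.00). The Atp5if1 difference on ground was -0.27 without ground untreated 3 and -0.87 without ground untreated 1. Space against ground over both treatments gave -0.27 ± 0.25, and 0.05 without the single space untreated array.

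Other genes of the respiratory chain were read from lists of factors that assemble it, carry its electrons, feed it or regulate it. Of 45 measured assembly factors, 22 electron carriers and coenzyme Q genes, 22 genes of the tricarboxylic acid cycle and 25 regulators, 0 passed the limma test after adjustment in any comparison. Their median log2 differences in space against ground were -0.04, 0.03, -0.09 and -0.03, and in nanoceria against untreated cells -0.05, 0.05, 0.08 and -0.05. At an unadjusted p under 0.05 in space against ground, 0 assembly factors, 1 carrier gene higher and 1 lower, 1 cycle gene higher and 2 lower, and 1 regulator higher and 1 lower were counted (all probe sets: 5.3% higher and 4.26% lower). In nanoceria against untreated cells the counts were 0 assembly factors, 2 carrier genes higher and 1 lower, 1 cycle gene lower, and 2 regulators lower (all probe sets: 3.77% higher and 5.86% lower). The shares within the lists ran from 0% to 9.09% and lay on both sides of those over all probe sets. With lists of 22 to 45 genes, counts this small cannot be judged.

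The assembly factors also differed between arrays. Ground nanoceria 1 held the highest value for 22 of 45 (48.9%) and ground nanoceria 3 the lowest for 19 (42.2%). Ground untreated 3 held the highest for 15 (33.3%). Over all named genes these shares were 18.3%, 12.5% and 14.5%. Among electron carriers, cytochrome c (Cycs) had 9.39, 8.33 and 8.77 with nanoceria on ground, against 9.56 and 9.71 untreated. All 3 were below both untreated arrays, with a difference of -0.80 ± 0.30 (SE, limma adjusted p = 0.403). Cyc1, the cytochrome of complex III that passes electrons to Cycs, had 12.12, 11.59 and 11.72 there, against 11.22 and 11.52, a difference of 0.44 ± 0.20 in the other direction (limma adjusted p = 0.482).

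Dhodh, which passes electrons from pyrimidine synthesis to coenzyme Q, differed by 1.04 ± 0.28 with nanoceria on ground (SE, limma adjusted p = 0.278), and Coq10b, a coenzyme Q binding protein, by -0.59 ± 0.15 (limma adjusted p = 0.255). Of the genes that gate pyruvate into the cycle, the kinase Pdk1 had 10.24 and 10.74 (nanoceria) and 10.97 (untreated) in space, and 8.10, 10.39 and 7.44 (nanoceria) and 6.59 and 8.86 (untreated) on ground. Ground nanoceria 2 lay between the 2 space nanoceria arrays and apart from the other ground arrays. In space against ground Pdk1 differed by 2.35 ± 0.74 and the related kinase Pdk2 by -0.76 ± 0.21 (SE, limma adjusted p = 0.405 and 0.398).

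Among regulators, Higd1a had the smallest p in space against ground. Higd1a, an inner membrane protein induced by low oxygen that binds complex IV, had 11.27 and 11.86 (nanoceria) and 11.58 (untreated) in space, and 9.68, 11.16 and 9.41 (nanoceria) and 9.17 and 9.49 (untreated) on ground. Every space array was above every ground array, and ground nanoceria 2 was the highest on ground, as it was for Pdk1. The difference over both treatments was 1.75 ± 0.39 (SE, limma adjusted p = 0.345).

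Tfb2m, a factor of mitochondrial transcription, had 7.83 and 8.24 (nanoceria) and 8.34 (untreated) in space, and 7.39, 7.64 and 7.34 (nanoceria) and 8.23 and 8.40 (untreated) on ground. The 3 ground nanoceria arrays were the lowest of the 8, and the difference on ground was -0.86 ± 0.19 (SE, limma adjusted p = 0.219). Hif1a, the oxygen-regulated subunit of the hypoxia factor, had 9.84 and 9.76 (nanoceria) and 10.20 (untreated) in space, and 8.71, 9.79 and 9.30 (nanoceria) and 9.91 and 10.53 (untreated) on ground. All 5 nanoceria arrays were below all 3 untreated ones, with a difference over both regimes of -0.76 ± 0.26 (limma adjusted p = 0.453).

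Pprc1, a coactivator of the PGC-1 family that works with NRF1, had 8.58 and 8.50 (nanoceria) and 8.69 (untreated) in space, and 9.23, 8.90 and 9.21 (nanoceria) and 8.89 and 8.65 (untreated) on ground. In nanoceria-treated cells its space arrays lay below all ground arrays, a difference of -0.58 ± 0.17 (SE, limma adjusted p = 0.458). Etfdh, which passes electrons from fatty acid oxidation to coenzyme Q, had 7.08 and 7.14 (nanoceria) and 7.09 (untreated) in space, and 6.26, 6.84 and 6.68 (nanoceria) and 6.90 and 6.98 (untreated) on ground. Every space array was above every ground array, with a difference of 0.39 ± 0.16 over both treatments (limma adjusted p = 0.503).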

How the data were processed

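Each of 8 arrays gave 1 intensity per probe set, which the authors deposited on a linear scale after RMA, per the submitters' processing notes; software, version and settings are not given in the sources used here. RMA makes the distributions of the arrays alike, so a shift of most genes would be removed. Log2 was taken without a pseudocount. Of 23188 probe sets, 15049 had 1 gene symbol, 8139 none and 0 several. All 73 subunit genes matched RefSeq by gene identifier.

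Differences were fitted over all probe sets with limma 3.58.1 in R 4.3.3 (empirical Bayes, two-sided, Benjamini-Hochberg at 0.05). The fit with additive terms for regime and treatment had 5 residual degrees of freedom, and a fit with 1 mean per group 4. The script was tested on simulated data. Named genes were taken from the 3 or 5 subunit genes of smallest p in each direction by comparison, core subunits and isoforms, and the 2 of smallest p in each direction of each other list. Members and lists were chosen with earlier results of these data known. Alternatives changed scaling, filter, variance model, array weights, a replicate block and single arrays. Promoter windows came from RefSeq (GRCr8).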

Additional observations from a re-analysis of the deposited data

How the results depend on the processing

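In every alternative run, 0 subunit genes passed the adjusted limma test, and the median over the 73 moved by less than 0.178, the SD of the array medians within groups. With all arrays the median farthest from 0 was 0.09, for the interaction. Moves smaller than that SD therefore include the changes of sign given above. Over all probe sets, space against ground had 4 calls with array weights and 0 to 1 when each array was left out in turn (1 without ground untreated replicate 3 and 1 without ground nanoceria replicate 2). Nanoceria on ground had 0 to 167 (167 without ground untreated replicate 1), and space in untreated cells 0 to 6 (6 without the same array). Some single genes changed sign when arrays were left out: space against ground for Atp5if1 ran from -0.41 to 0.047, nanoceria over both regimes for Atp5if1 from -0.57 to 0.00077, and nanoceria on ground for Sdha from -0.011 to 0.40, for Sdhb from -0.20 to 0.70, for Cox6a2 from -0.64 to 0.15, for Cox4i1 from -0.0045 to 0.43 and for Ndufs1 from -0.81 to 0.049. The causes were not tested. With the label's replicate number as a replicate block, the median over the subunit genes was -0.06 in space against ground, 0.08 in nanoceria against untreated cells and 0.02 for nanoceria on ground, with 0 probe sets called. The deviations of arrays of the same number from their group means correlated at r from -0.35 to -0.01 over 5 pairs. With so few arrays a group, the deviations within a group depend on each other. These values therefore cannot show whether arrays of the same number share a hardware unit or a batch. Without the single space untreated array, nanoceria in space, space in untreated cells and the interaction could not be fitted. The dimmest probe set per symbol gave no alternative, as each gene had 1. Scaling by cyclic loess moved the number of subunit genes higher with nanoceria on ground to 31 of 73 and scaling to equal array medians to 42, against 36. With 1 to 3 arrays a group and no background measure, small differences and dim genes cannot be judged.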
